A study of Mus musculus with 39 samples.

Results

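Sorted TrkCGFPon and TrkCGFPoff cells of Bax-/- mice at p0 were compared, a setting in which developmental neuron death is blocked while NT3 is present. The members are the 4 arrays titled as Bax mutants at p0, 2 of TrkC+ cells and 2 of TrkC- cells, out of 39 arrays of mouse dorsal root ganglia (DRG) in the series. Both populations came from the same genotype, Bax-/- with the TrkCGFP transgene on a 129/C57Bl6 background, and from DRG of levels L1 to L6 pooled before sorting, so they differed in the sort and both lacked Bax. They are called GFPon (labelled TrkC+) and GFPoff (labelled TrkC-) here, and each array was made from about 350 cells. According to the methods, a size gate by light scatter followed the GFP gate for GFPon cells, and none is described for GFPoff cells. The part of cell size in the differences was not tested. For comparison, the same populations were taken from NT3-/-Bax-/- mice, which lack the ligand as well, and from wild-type mice, with the same transgene, background, age and levels and 2 arrays for each population. The fit behind every test also holds 4 arrays of another genotype, mlcNT3, in which a myosin light chain promoter drives NT3 in skeletal muscle, with both populations sorted in the same way. In the tests these arrays enter only the estimate of the spread. They also counted in the choice of the brightest probe set of a gene. The transgene is a bacterial artificial chromosome in which TrkC regulatory elements drive GFP, so GFP reports these elements and not the receptor itself. The GFPoff gate can hold every other DRG neuron as well as non-neuronal cells. The labels do not say whether the 2 arrays of a group came from separate litters, so p-values measure the spread between these arrays, which may be partly technical.

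DRG neurons convey touch, pain, temperature and limb position to the spinal cord. Proprioceptors, which innervate muscle spindles and tendon organs, depend on NT3 made by muscle and on its receptor TrkC (encoded by Ntrk3). Nociceptors respond to noxious stimuli and innervate skin and inner organs. Bax is needed for the apoptosis of neurons that lose trophic support, and in its absence such neurons survive.

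The upstream sequences of 4 genes are shown because the genes mark both sides of the sort: Runx3 and Pvalb were high in GFPon cells, and Ntrk2 and Trpv1 were high in GFPoff cells. The RUNX core letters TGTGGT are written in capitals wherever they occur on either strand (ACCACA on the other), since 2 RUNX factors, Runx3 and Runx1, lay on opposite sides of the sort. Each run is the 250 bases before a start annotated by RefSeq on build GRCm38.p6, written 5′ to 3′ along the gene.
Runx3 chr4:135120395-135120644 (+ strand): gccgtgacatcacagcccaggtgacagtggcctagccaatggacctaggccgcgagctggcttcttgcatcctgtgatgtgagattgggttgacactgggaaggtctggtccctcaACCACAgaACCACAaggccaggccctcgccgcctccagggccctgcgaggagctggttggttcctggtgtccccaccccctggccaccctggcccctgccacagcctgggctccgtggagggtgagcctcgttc
Ntrk2 chr13:58806319-58806568 (+ strand): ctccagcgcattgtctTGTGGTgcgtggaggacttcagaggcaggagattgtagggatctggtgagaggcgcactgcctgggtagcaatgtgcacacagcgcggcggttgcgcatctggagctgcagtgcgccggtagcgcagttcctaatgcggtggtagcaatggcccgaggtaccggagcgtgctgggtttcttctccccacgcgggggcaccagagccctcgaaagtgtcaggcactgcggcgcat
Trpv1 chr11:73233899-73234148 (+ strand): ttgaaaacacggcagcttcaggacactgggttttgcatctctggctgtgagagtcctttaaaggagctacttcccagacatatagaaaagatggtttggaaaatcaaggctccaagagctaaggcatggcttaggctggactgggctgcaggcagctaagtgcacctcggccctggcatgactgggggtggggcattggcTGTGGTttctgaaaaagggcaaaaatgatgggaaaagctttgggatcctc
Pvalb chr15:78206401-78206650 (- strand): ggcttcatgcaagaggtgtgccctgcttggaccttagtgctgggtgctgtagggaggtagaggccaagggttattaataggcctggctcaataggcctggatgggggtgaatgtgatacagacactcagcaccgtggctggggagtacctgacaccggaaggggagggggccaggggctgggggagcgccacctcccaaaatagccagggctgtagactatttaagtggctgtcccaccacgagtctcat
In these windows Runx3 held 2 matches, which did not overlap, Ntrk2 and Trpv1 held 1 each, and Pvalb held none. Another annotated start of Runx3 and of Pvalb held none either. Of 32851 promoters of the same length, 14% held at least 1 match and 1.27% held 2 or more. Among the genes with the largest differences described below, 1 of 13 with a listed promoter held a match on the GFPon side and 0 of 11 on the GFPoff side. The matches are a description of letters.

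Of 10 measured proprioceptor markers, 8 were higher in GFPon than in GFPoff cells of Bax-/- mice, and of 13 nociceptor and thermoreceptor markers 7 were lower, beside 5.32% of all genes higher and 5.06% lower by limma at an adjusted p under 0.05. The proprioceptor list is not independent of this series: the study named Esrrg, Pth1r, Grm3 and Gjd2 from its wild-type GFPon arrays. In addition, elements of Ntrk3 drive the GFP used for the sort. Levels of the nociceptor and thermoreceptor markers summed to 27399 and 27049 on GFPon arrays, against 54442 and 54602 on GFPoff arrays. Expression values are the deposited linear intensities of a probe set, which have no unit. Values of single genes are compared only within a probe set. The sums of marker lists add different probe sets, so the brightest members weigh most in them, whether or not these passed the test. Pvalb, the calcium-binding protein parvalbumin of proprioceptors, had 9261 and 8509 on GFPon arrays, against 78.3 and 41.4 on GFPoff arrays. Runx3 had 1321 and 1600.1 on GFPon arrays, against 17.6 and 16.1 on GFPoff arrays. Ntrk3 had 2052 and 1685 on GFPon arrays, against 115 and 171 on GFPoff arrays. No GFPon array reached down to the GFPoff range in these genes. Scn10a, which encodes the nociceptor sodium channel Nav1.8, had 34.4 and 36.4 on GFPon arrays, against 1292 and 1083 on GFPoff arrays. Trpv1, the capsaicin receptor, had 68.8 and 81.7 on GFPon arrays, against 932 and 1387 on GFPoff arrays. Here the order was reversed, again without overlap. Isl1, a homeodomain factor shared by DRG neurons, had 6450.0 and 7142 on GFPon arrays, against 6311 and 7002 on GFPoff arrays, and its values overlapped. Fewer cells of a type and less RNA per cell cannot be told apart in such pooled samples.

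**Figure D1:**
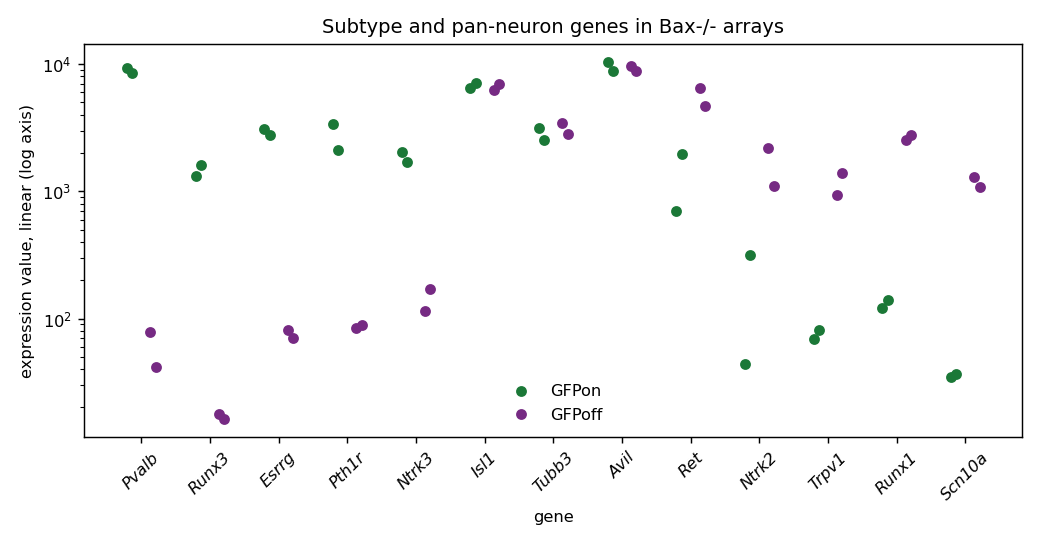
Expression value (linear, on a log axis) of 13 genes in each Bax-/- array, with GFPon arrays in green to the left of GFPoff arrays in purple and 1 point per array. Pvalb, Runx3, Esrrg, Pth1r and Ntrk3 were higher on both GFPon arrays, Ret, Ntrk2, Trpv1, Runx1 and Scn10a were lower on both, and Isl1, Tubb3 and Avil lay close together.

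The GFPon pair was the less even one. Its 2 arrays correlated at 0.978 over all probe sets with 202 of them over 4-fold apart, and the GFPoff pair correlated at 0.989 with 90, while both wild-type pairs correlated at 0.994 with 26 to 30 so far apart. Reg3b, a secreted protein induced in injured neurons, had 3522 and 226 on GFPon arrays, against 13.6 and 18.6 on GFPoff arrays. Vip, a neuropeptide, had 1258 and 103 on GFPon arrays, against 20.9 and 17.7 on GFPoff arrays. In both genes the lower GFPon array was still above the GFPoff arrays. On the GFPoff side, replicate 2 carried more signal of some vessel-wall and macrophage genes, but not of all. Pecam1, an endothelial gene, was nearly level between the GFPoff arrays. The marker sums given below were higher on replicate 2, and most of the macrophage rise came from Csf1r. Rgs5, a pericyte gene, had 27.7 and 29.9 on GFPon arrays, against 21.5 and 438 on GFPoff arrays, and Csf1r, the macrophage growth factor receptor, had 67.5 and 60.5 on GFPon arrays, against 114 and 962 on GFPoff arrays.

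In limma's moderated test, fitted over 16 arrays of 4 genotypes, 1823 of 45037 probe sets were higher and 1699 were lower in GFPon than in GFPoff cells at a Benjamini-Hochberg adjusted p under 0.05, that is 4.05% and 3.77% of those tested and 7.82% in all. Arrays of both populations did not overlap for any of these calls, nor for 45.1% of all probe sets. The median log2 difference of the calls was 1.33 among those higher and -1.23 among those lower. Differences of over 16-fold were found in 35 probe sets that were higher and 28 that were lower. With the thresholds of the study, a fold of 2 or more and an unadjusted p no larger than 0.02, 1547 probe sets were higher (3.43%) and 1343 were lower (2.98%), 6.42% in all. Per gene, taking the brightest of its probe sets, 968 of 18193 genes were higher and 921 lower, 5.32% and 5.06% and 10.4% in all, with a median difference over all genes of -0.02. The number of calls rested on few arrays: it was 1863 without GFPoff replicate 1, 2004 without GFPoff replicate 2 and 1322 when the 4 Bax-/- arrays were fitted alone, against 3522 in the fit of all 16.

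The 15 genes with the largest rise in GFPon cells held transcription factors, receptors and secreted signals. Pvalb led them, with a log2 difference of 7.29 ± 0.55 (limma's standard error, 2 arrays a group, limma adjusted p = 1.05e-05). Here and below this error rests on the spread pooled over the 8 groups of the fit, so it is not the spread of the Bax-/- arrays alone. Runx3, which is needed for proprioceptor identity, followed at 6.43 ± 0.29, called by 1 of its 2 probe sets. Esrrg, the nuclear receptor ERR gamma, had 3084 and 2795 on GFPon arrays, against 81.2 and 70.8 on GFPoff arrays, a difference of 5.27 ± 0.38. Among receptors, Htr2c, the serotonin receptor 2C, had the smallest limma adjusted p of all probe sets (7.96e-08), with 924 and 1023 on GFPon arrays, against 13.4 and 16.8 on GFPoff arrays. Pth1r, the receptor of parathyroid hormone and its related peptide, had 3382 and 2115 on GFPon arrays, against 84.9 and 89.1 on GFPoff arrays. Dcc, the netrin receptor, rose by 5.55 ± 0.33.

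Secreted proteins formed the next group among these 15. Fgf9, a fibroblast growth factor, had 1965 and 2968 on GFPon arrays, against 56.5 and 63.6 on GFPoff arrays, a difference of 5.33 ± 0.28. Wnt7a, a Wnt ligand, had 3177 and 1974 on GFPon arrays, against 66.7 and 72.7 on GFPoff arrays. Its difference of 5.17 ± 0.32 was called by 1 of its 3 probe sets. Pappa2, a protease that cleaves IGF-binding proteins, rose by 4.89 ± 0.46, and Reg3b by 5.81 ± 0.84, the widest error of the 15. The others were Gpat3, an acyltransferase of lipid synthesis (5.15), Lancl3 (5.16), Rhbdl3, a rhomboid-like protein (4.98), and the transcripts E430016F16Rik (5.30) and Gm16551 (4.91). All 15 stayed called when any 1 of the 4 Bax-/- arrays was left out, but Reg3b did not pass when the 4 were fitted alone, and its difference was 3.83 without GFPon replicate 1 and 7.79 without GFPon replicate 2.

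The 15 genes with the largest fall in GFPon cells included Scn10a and Runx1 of the nociceptor and thermoreceptor list. Which of the GFPoff cells express the other genes was not tested. Ets1, an ETS factor, had 35.9 and 10.6 on GFPon arrays, against 1007 and 799.6 on GFPoff arrays, a difference of -5.52 ± 0.51 (limma adjusted p = 3.71e-05). Scn10a fell by 5.06 ± 0.52. Runx1, the RUNX factor of nociceptors, had 122 and 140.1 on GFPon arrays, against 2516 and 2775 on GFPoff arrays, a difference of -4.34 ± 0.54 in a gene where 4 of 6 probe sets were called. Other regulators in this group were Klf5 (-4.52), a Krüppel-like factor, Insm2 (-4.47), a zinc finger protein, and Ldb2 (-5.06), a cofactor of LIM domain proteins. Aqp1, the water channel aquaporin 1, had 128 and 102 on GFPon arrays, against 2169 and 1844 on GFPoff arrays.

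Membrane and signalling proteins made up most of the rest. Cav1, the main protein of caveolae, fell by 5.16 ± 0.56, Gna14, a G protein subunit, by 5.15 ± 0.83, and Lpar3, a lysophosphatidic acid receptor, by 4.37 ± 0.49. Nell1 (-4.66), Them5 (-4.24) and the transcript 9430021M05Rik (-4.52) completed those called without any single Bax-/- array. The other two rested on fewer arrays. Tmem45b, a transmembrane protein, had 229 and 48.9 on GFPon arrays, against 4195 and 3457 on GFPoff arrays, and its limma adjusted p of 0.0071 became 0.052 without GFPon replicate 2 and 0.054 without GFPoff replicate 1. Lgals3, galectin 3, had 161 and 46.5 on GFPon arrays, against 2307 and 2616 on GFPoff arrays, and its limma adjusted p of 0.021 became 0.11 without GFPon replicate 2, 0.099 without GFPoff replicate 1 and 0.11 without GFPoff replicate 2.

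**Figure D2:**
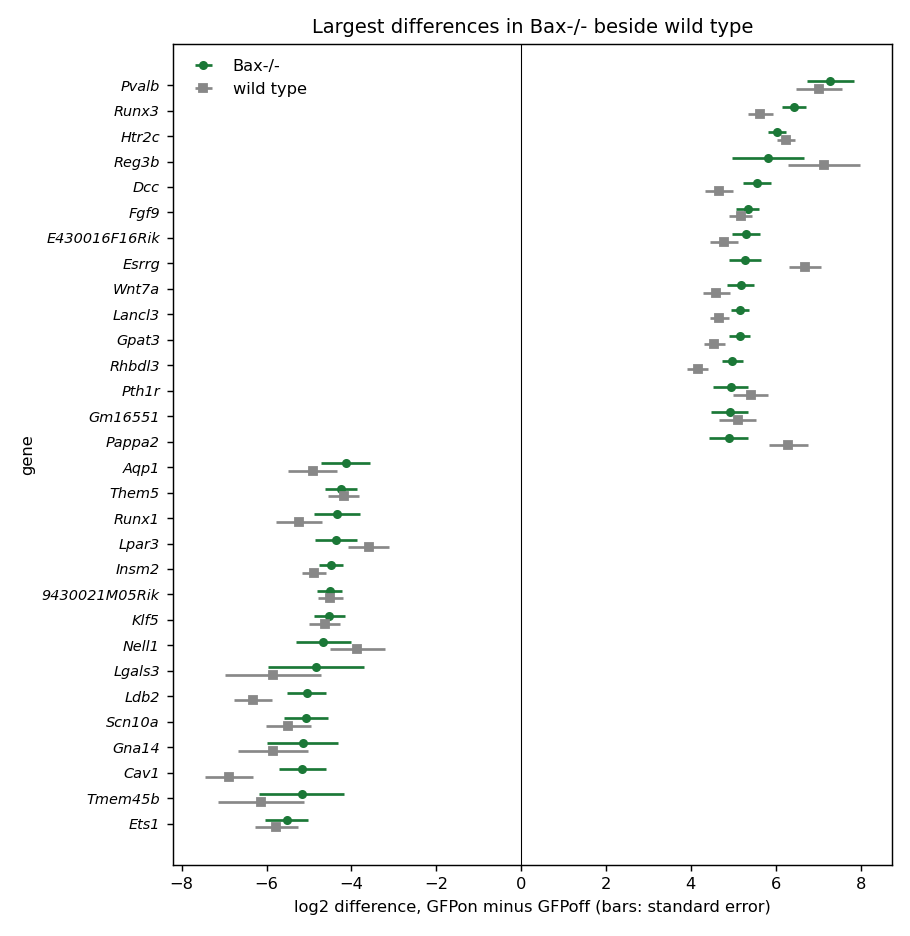
Log2 difference, GFPon minus GFPoff, with limma's standard error for the 15 genes with the largest rise and the 15 with the largest fall in Bax-/- mice, with Bax-/- as green circles and wild type as grey squares. All 30 differences had the same sign in wild type; the genes were chosen on the Bax-/- differences.

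Gene lists were read by counts, beside the 5.32% of genes higher and 5.06% lower over all genes. Each count is followed in brackets by its lowest and highest value when the 4 Bax-/- arrays were left out in turn. Of 219 called list genes, 74 lost the call without GFPon replicate 1, 43 without GFPon replicate 2, 75 without GFPoff replicate 1 and 80 without GFPoff replicate 2. Genes described below by their difference between the Bax-/- populations kept the call in each of these fits unless a value is given. Of 10 measured proprioceptor markers, 8 (7 to 8) were higher and 0 lower, with a median log2 difference of 3.43. Beside Pvalb, Runx3, Ntrk3, Esrrg and Pth1r these were Gjd2, the gap junction protein connexin 36 (3.14), Cdh13, T-cadherin (2.34), and Grm3, a glutamate receptor (2.55), whose limma adjusted p became 0.06 without GFPon replicate 2 and 0.11 without GFPoff replicate 1. Whrn and Calb2, at 0.12 and -1.05, did not pass the test.

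Of 13 nociceptor and thermoreceptor markers, 0 were higher and 7 (5 in each) lower, with a median of -1.09. Trpv1 fell by 3.92 ± 0.24 and Gfra3, the artemin receptor, by 1.41 ± 0.17. Scn11a, the channel Nav1.9, had a difference of -2.95 but passed in none of the fits that left out a Bax-/- array (limma adjusted p = 0.061 to 0.12). Tac1, the precursor of substance P, had 6141 and 6329 on GFPon arrays, against 8145 and 8839.7 on GFPoff arrays. P2rx3, a purine receptor of nociceptors, had 3762 and 5378 on GFPon arrays, against 6635 and 8145 on GFPoff arrays. Neither of these probe sets passed the test, although 1 of 3 for P2rx3 did.

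Markers of low-threshold mechanoreceptors divided. Of 10, 5 (2 to 5) were lower and 1 (1 to 2) higher. Th, tyrosine hydroxylase of a class of C fibres, had 85.8 and 61.8 on GFPon arrays, against 359.5 and 560.3 on GFPoff arrays. Gfra1, a GDNF coreceptor, fell by 2.17 ± 0.31. Ntrk2, the receptor TrkB, had 44.2 and 316 on GFPon arrays, against 2200.2 and 1099 on GFPoff arrays, with a limma adjusted p of 0.0064 that became 0.071 without GFPoff replicate 1. Ret, the receptor kinase of the GDNF family, had 697 and 1961 on GFPon arrays, against 6486 and 4709.7 on GFPoff arrays, with a limma adjusted p of 0.0085 that became 0.067 without GFPon replicate 1 and 0.08 without GFPoff replicate 1. Shox2, a homeodomain factor, was the one that rose, by 3.01 ± 0.36.

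Of 13 genes shared by sensory neurons, 11 did not pass the test, 1 (0 to 1) was higher and 1 (0 to 1) lower, with a median of 0.05. Snap25, a synaptic fusion protein, rose by 0.99 ± 0.18 (limma adjusted p = 0.004, and 0.053 without GFPoff replicate 2). Prrxl1, a homeodomain factor of nociceptor circuits, fell by 2.18 ± 0.44 (limma adjusted p = 0.0092, and 0.081 without GFPon replicate 1, 0.054 without GFPoff replicate 1 and 0.06 without GFPoff replicate 2).

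Markers of other cells were measured in both populations. The 10 glial markers summed to 8599 and 11597 on GFPon arrays, against 13338 and 13131 on GFPoff arrays. S100b rose (1.69), Pmp22 fell (-1.87), and Sox10, a defining factor of glia, had 274 and 319.8 on GFPon arrays, against 366 and 478 on GFPoff arrays. Of 9 fibroblast and matrix markers, Dcn (-3.38) and Pdgfra (-1.51) were lower. The 10 endothelial and mural markers summed to 699 and 973 on GFPon arrays, against 1533 and 2729 on GFPoff arrays. Cdh5 (-1.23) and Kdr (-0.90) passed the test there, with limma adjusted p of 0.0076 and 0.049 that became 0.075 and 0.38 without GFPoff replicate 2. For Kdr it became 0.054 and 0.21 without GFPon replicate 1 and 2. Pecam1, a defining endothelial gene, had 22.9 and 21.2 on GFPon arrays, against 22.5 and 23.98 on GFPoff arrays. The 10 macrophage markers summed to 342 and 307 on GFPon arrays, against 411 and 1508 on GFPoff arrays. The macrophage, red blood cell and cell division lists held no gene that passed limma's adjusted threshold. The part of these cells in the differences of other genes was not tested.

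**Figure D3:**
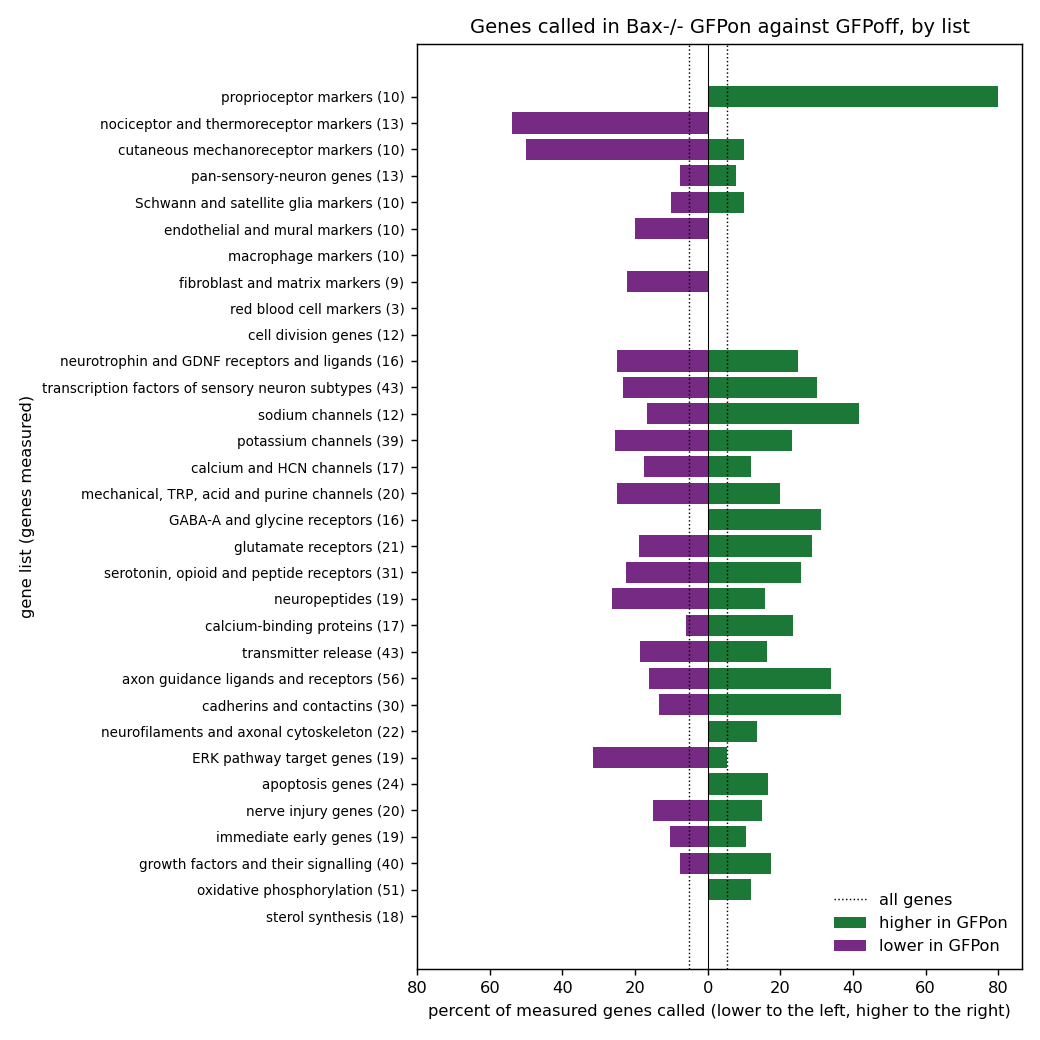
Percent of the measured genes of each list called higher (green, to the right) or lower (purple, to the left) in GFPon than in GFPoff cells of Bax-/- mice, with dotted lines at the 5.32% and 5.06% of all genes. Proprioceptor markers reached 80% higher and nociceptor markers 53.8% lower.

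Receptors of trophic factors were divided between the populations. Of 16 neurotrophin and GDNF receptors and ligands, 4 (3 to 4) were higher and 4 (2 to 4) lower. The 4 higher were Ntrk3 and the sortilin-related receptors Sorcs1, Sorcs2 and Sorcs3. Sorcs1 had 1208 and 1586 on GFPon arrays, against 350.1 and 266 on GFPoff arrays. Sorcs2 had 403 and 242 on GFPon arrays, against 56.5 and 52.6 on GFPoff arrays. Sorcs3 rose by 1.59 with a limma adjusted p of 0.0059, which became 0.066 without GFPoff replicate 2. The 4 lower were Ntrk2, Ret, Gfra1 and Gfra3, so Ntrk3 and the measured GDNF family receptors that were called lay on opposite sides of the sort.

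Of 43 transcription factors of sensory neuron subtypes, 13 (10 to 13) were higher and 10 (6 to 9) lower, 30.2% and 23.3%. Ppargc1a, the coactivator PGC1 alpha that works with ERR receptors, had 3576 and 3384 on GFPon arrays, against 534 and 416 on GFPoff arrays. Meis2 rose by 2.08 ± 0.28 and its relative Meis1 fell by 2.33 ± 0.44. Lmo2, a LIM-only protein, rose by 1.89, and Ldb2, a partner of such proteins, fell by 3.97 by its brightest probe set. Etv5, an ETS factor, had 232 and 193 on GFPon arrays, against 1525 and 954 on GFPoff arrays. Isl2, a homeodomain factor, fell by 2.33 ± 0.25.

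Ion channels differed in both directions. Of 12 sodium channel genes, 5 (3 to 4) were higher and 2 (1 in each) lower. Scn1a, encoding Nav1.1, had 3430.1 and 4272 on GFPon arrays, against 449.6 and 407 on GFPoff arrays. Scn2a, encoding Nav1.2, had 2387 and 2489.8 on GFPon arrays, against 355 and 442 on GFPoff arrays. Scn8a, encoding Nav1.6, rose by 1.44 ± 0.24. Of 39 potassium channel genes, 9 (5 to 9) were higher and 10 (6 to 8) lower. Kcnk1, a two-pore channel, had 1930.1 and 1065 on GFPon arrays, against 82.4 and 49.2 on GFPoff arrays. Kcnq3, which carries the M current, rose by 3.14 ± 0.20. On the other side Kcnc2 fell by 3.06 ± 0.25, Kcnip1, a channel-associated calcium sensor, by 2.54 ± 0.22, and Kcnt1, a sodium-activated channel, by 2.01 ± 0.36. Of 20 mechanical, TRP, acid and purine channels, 4 (3 to 5) were higher, among them the acid-sensing channels Asic3 (2.53) and Asic1 (2.09) and the purine receptor P2rx1 (2.86), and 5 (4 in each) lower, among them Tmem63a (-2.87) and Trpc6 (-3.07).

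Among transmitter receptors, one list was called in a single direction. Of 16 GABA-A and glycine receptor genes, 5 (2 to 5) were higher and 0 lower, 31.2%, with a median of 0.47. Gabrg1, the gamma 1 subunit, had 746 and 677 on GFPon arrays, against 59.4 and 45.98 on GFPoff arrays, a difference of 3.77 ± 0.40, and its dimmer probe set differed by 2.02 ± 0.30. Gabra5, the alpha 5 subunit, had 942 and 1153 on GFPon arrays, against 135 and 104 on GFPoff arrays. The count was 2 without GFPon replicate 1 or GFPoff replicate 2 and 3 without GFPoff replicate 1. Of 21 glutamate receptor genes, 6 (3 to 4) were higher, among them Grid1 (2.36) and Grm4 (1.36), and 4 (1 to 2) lower. Of 31 serotonin, opioid and peptide receptor genes, 8 (5 to 7) were higher and 7 (4 to 6) lower. Htr1d, a serotonin receptor, rose by 2.48 ± 0.38, while Htr3b, a subunit of the serotonin-gated channel, fell by 3.62 ± 0.27 and Ptger3, a prostaglandin receptor, by 3.45 ± 0.47.

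Of 43 transmitter release genes, 7 (4 to 7) were higher and 8 (4 to 6) lower. Among synaptotagmins, the calcium sensors of vesicle fusion, Syt2 rose by 2.56 ± 0.21, and Syt7 and Syt9 fell by 1.98 ± 0.19 and 2.57 ± 0.39. Unc13c, a vesicle priming protein, had 145 and 135 on GFPon arrays, against 2083 and 2103 on GFPoff arrays. Of 19 neuropeptides, 3 (2 to 3) were higher and 5 (2 to 4) lower. Vip rose by 4.23 ± 0.81, with 2.42 when GFPon replicate 1 and 6.03 when GFPon replicate 2 was left out, and Crh, corticotropin-releasing hormone, by 2.83 ± 0.48, with Crh at 92.5 and 35.8 on GFPon arrays, against 9.81 and 6.70 on GFPoff arrays. Nmb, neuromedin B, fell by 2.61 ± 0.39. None of Vip, Crh and Nmb passed when the 4 Bax-/- arrays were fitted alone, and Crh did not pass with a pseudocount of 32.

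Genes of axon guidance and adhesion were called in both directions. Of 56 guidance ligands and receptors, 19 (10 to 16) were higher and 9 (5 to 10) lower, 33.9% and 16.1%. Slit2, a repellent ligand, had 3939.6 and 5481 on GFPon arrays, against 327 and 409 on GFPoff arrays. Its receptor Robo1 rose by 2.86 ± 0.47. The semaphorins Sema3a (3.42) and Sema3d (3.24), the receptor Plxna1 (2.65) and the ephrin receptors Epha3 (3.72) and Epha4 (4.07) were higher. Unc5d, a netrin receptor, had 28.1 and 31.98 on GFPon arrays, against 341 and 548 on GFPoff arrays. The lowest counts, 10 higher and 5 lower, were those without GFPoff replicate 2. Of 30 cadherins and contactins, 11 (9 to 10) were higher and 4 (1 to 2) lower. Pcdh8, a protocadherin, had 4068 and 5667 on GFPon arrays, against 178 and 481 on GFPoff arrays. Pcdh11x rose by 3.31 ± 0.44 and Cdh7 by 2.58 ± 0.32.

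Other lists had fewer calls. Of 22 neurofilament and axonal cytoskeleton genes, 3 (2 in each) were higher, among them Nefm, the medium neurofilament (2.23), and Tuba8, a tubulin (2.70). Of 19 targets of ERK signalling, 6 (2 to 5) were lower and 1 (0 to 1) higher. Etv5 was among those lower, as was Vgf, a secreted neuronal protein, with 516 and 600.5 on GFPon arrays, against 1355 and 1120.4 on GFPoff arrays (limma adjusted p = 0.0068, 0.052 without GFPon replicate 1 and 0.073 without GFPoff replicate 1). The count lower was 2 without GFPoff replicate 1 and 3 without GFPon replicate 1, and the count higher was 0 in both of these fits. Of 40 growth factor genes, 7 (6 to 8) were higher, with Pappa (2.71), a relative of Pappa2, and Gas6 (1.69), a ligand of TAM receptors, and 3 (2 to 3) lower, with Igfbp2, an IGF-binding protein, at 78.3 and 69.4 on GFPon arrays, against 1098 and 1158 on GFPoff arrays.

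Of 24 apoptosis genes, 4 (0 to 3) were higher and 0 lower, 16.7%. They were the BH3-only genes Bcl2l11 (1.59) and Bmf (1.53), the mitochondrial nuclease Endog (1.45) and Aifm1 (0.80). The count was 0 without GFPoff replicate 1, 1 without GFPon replicate 1 and 2 without GFPoff replicate 2, and each of the 4 genes lost the call in at least 2 of the 4 fits that left out a Bax-/- array. All 51 oxidative phosphorylation genes had differences above 0, beside 8516 of all 18193 genes. Their median was 0.46 in Bax-/- mice and 0.44 in wild type. Of these 51 genes, 6 (2 to 15) were called in Bax-/- mice, among them Atp5g1, a subunit of ATP synthase (1.29). The count was 15 without GFPon replicate 2, 2 without GFPon replicate 1 or GFPoff replicate 1, and 3 without GFPoff replicate 2.

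To ask whether the population difference depends on Bax, the difference in Bax-/- mice was set against that in wild-type mice. The test of the difference of differences called 0 of 45037 probe sets by limma (0%), with 1944 (4.32%) at an unadjusted p under 0.05 and a smallest adjusted p of 0.40. In wild type 5.12% of probe sets were called higher and 3.83% lower, 8.95% in all. Of the calls in Bax-/- mice, 74.3% of those higher and 64.2% of those lower were also called in wild type, and these made up 58.8% of the wild-type calls higher and 63.2% of those lower. No probe set was called in opposite directions. The median half-width of the 95% interval for the difference of differences was 0.67 on the log2 scale over all probe sets and 0.75 over the Bax-/- calls.

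For single genes the log2 differences of differences, Bax-/- minus wild type, are given with their 95% intervals. These intervals are not adjusted for the number of genes tested. No probe set passed the correction in the fit reported here, whatever its interval. Pvalb had 0.27 (-1.43 to 1.96) and Runx3 had 0.80 (-0.09 to 1.68). Ntrk3 had -1.37 (-2.31 to -0.44) and Esrrg had -1.40 (-2.57 to -0.24). Gfra3 had 1635 and 1446 on Bax-/- GFPon arrays, against 657 and 559 on wild-type GFPon arrays. On GFPoff arrays it had 3754 and 4441 in Bax-/- mice, against 4609.9 and 4812 in wild type, and its value was 1.55 (1.01 to 2.09), with a limma adjusted p of 0.40. Trpv1 had 68.8 and 81.7 on Bax-/- GFPon arrays, against 26.2 and 22.98 on wild-type GFPon arrays, with 1.28 (0.55 to 2.01). Both nociceptor genes were higher on each Bax-/- GFPon array than on the wild-type ones, and neither passed the correction for the difference of differences. Over the 13 nociceptor and thermoreceptor markers the median GFPon minus GFPoff difference was -1.09 in Bax-/- mice and -0.99 in wild type, and their levels summed to 27399 and 27049 on Bax-/- GFPon arrays, against 25014 and 25452 on wild-type GFPon arrays. Pcdh7, a protocadherin, had -1.83 (-2.82 to -0.85), Kcnq3 had -1.42 (-2.04 to -0.80) and Syt7 had 1.12 (0.55 to 1.69), which did not pass it either.

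The few calls of this comparison came from alternative fits. A pseudocount of 32 gave that of Creg2, and leaving out single arrays gave the rest. Grp, gastrin-releasing peptide, had 691 and 136 on Bax-/- GFPon arrays, against 44.1 and 44.7 on wild-type GFPon arrays, with 2.74 (1.10 to 4.37). Its difference between the Bax-/- populations had a limma adjusted p of 0.0099, which became 0.076 without GFPoff replicate 2. The difference of differences was called when Bax-/- GFPon replicate 2 was left out (3.91, limma adjusted p = 0.013), together with Mgam, a glucosidase. Without Bax-/- GFPon replicate 1, the one with the high Reg3b value, 8 probe sets were called, among them both of Reg3b, with lower differences than in wild type (limma adjusted p = 1.48e-05 and 0.039). Without wild-type GFPon replicate 2, the one called probe set was of Gpr50.

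To ask which population differences in Bax-/- mice depend on NT3, they were set against NT3-/-Bax-/- mice, where 2039 probe sets had a higher and 2309 a lower difference (limma, adjusted p under 0.05), 4.53% and 5.13% of those tested and 9.65% in all. Both comparisons use the Bax-/- arrays, so genes chosen on Bax-/- differences are given by their levels, without a test. Htr2c had 16.04 and 12 on NT3-/-Bax-/- GFPon arrays, against 924 and 1023 on Bax-/- GFPon arrays. Lancl3 had 18.3 and 19.4 on NT3-/-Bax-/- GFPon arrays, against 709 and 665 on Bax-/- GFPon arrays. Wnt7a had 51.3 and 64.4 on NT3-/-Bax-/- GFPon arrays, against 3177 and 1974 on Bax-/- GFPon arrays. On Bax-/- GFPoff arrays Lancl3 had 17.5 and 21.1, so without NT3 the GFPon levels of Lancl3 and Htr2c overlapped those of Bax-/- GFPoff cells, and the levels of Wnt7a lay below them. Pvalb had 156 and 838 on NT3-/-Bax-/- GFPon arrays, against 9261 and 8509 on Bax-/- GFPon arrays, and its NT3-/-Bax-/- arrays stood between. Gabrg1 had 18.7 and 26.3 on NT3-/-Bax-/- GFPon arrays, against 746 and 677 on Bax-/- GFPon arrays. Others stayed nearer. Esrrg had 1935 and 2350.3 on NT3-/-Bax-/- GFPon arrays, against 3084 and 2795 on Bax-/- GFPon arrays, and Runx3 had 593 and 892 on NT3-/-Bax-/- GFPon arrays, against 1321 and 1600.1 on Bax-/- GFPon arrays. E430016F16Rik had 4063 and 5072 on NT3-/-Bax-/- GFPon arrays, against 3442 and 6317 on Bax-/- GFPon arrays, and its arrays overlapped between the genotypes.

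**Figure D4:**
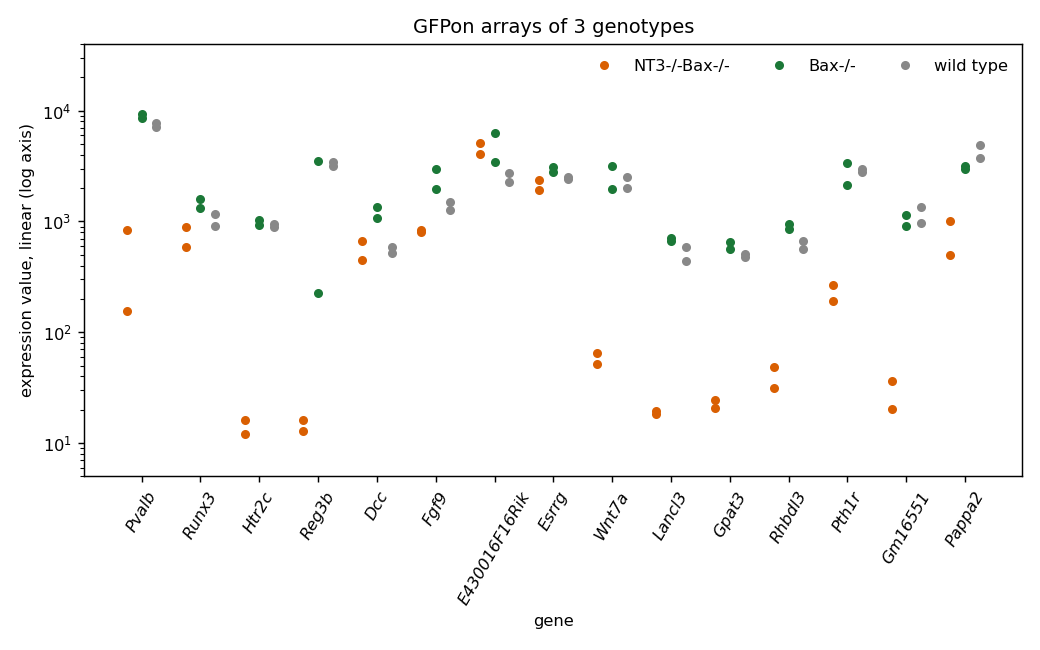
Expression value (linear, on a log axis) on each GFPon array for the 15 genes with the largest rise in Bax-/- mice, with NT3-/-Bax-/- in orange, Bax-/- in green and wild type in grey, 1 point per array. Htr2c, Reg3b, Wnt7a, Lancl3, Gpat3, Rhbdl3 and Gm16551 lay below 100 on both NT3-/-Bax-/- arrays, and E430016F16Rik overlapped between NT3-/-Bax-/- and Bax-/-.

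Some genes of the Bax-/- GFPon population had higher levels still without NT3. Asic3 had 3898 and 4165 on NT3-/-Bax-/- GFPon arrays, against 2607 and 3148 on Bax-/- GFPon arrays. P2rx1 had 1075 and 881 on NT3-/-Bax-/- GFPon arrays, against 452 and 319.6 on Bax-/- GFPon arrays. Lmo1, a LIM-only protein, had 3465 and 2616 on NT3-/-Bax-/- GFPon arrays, against 345 and 298 on Bax-/- GFPon arrays. These 3 genes were picked for their higher levels, so they do not speak for other genes. Within Bax-/- mice Lmo1 differed by 1.49 ± 0.28 between populations (limma adjusted p = 0.0061, and 0.061 without GFPoff replicate 1). Jun, an immediate early factor of stressed neurons, had 7517 and 7953 on NT3-/-Bax-/- GFPon arrays, against 2346 and 3356 on Bax-/- GFPon arrays. Within Bax-/- mice the difference of Jun between populations was 1.16 ± 0.31 (limma adjusted p = 0.042, 0.052 without GFPon replicate 1, 0.19 without GFPon replicate 2 and 0.32 without GFPoff replicate 1).

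The NT3-/-Bax-/- GFPoff arrays stood apart in markers of other cell types, and these moved with the difference of differences. Fibroblast and matrix markers summed to 38104 and 56608 on these arrays, against 3194 and 5735 on Bax-/- GFPoff arrays. Endothelial and mural markers summed to 5654 and 7141 on NT3-/-Bax-/- GFPoff arrays, against 1533 and 2729 on Bax-/- ones, and glial markers to 29540.3 and 26404 on NT3-/-Bax-/- GFPoff arrays, against 13338 and 13131 on Bax-/- ones. Macrophage markers were high on 1 array, with 15506 and 550.4 on NT3-/-Bax-/- GFPoff arrays, against 411 and 1508 on Bax-/- ones. Of these lists, 6 of 9 fibroblast, 8 of 10 endothelial and mural, 8 of 10 glial and 0 of 10 macrophage markers had a called lower difference of differences, as did 9 of 12 cell division genes, beside 5.62% of all genes higher and 7.17% lower. Col1a1, a collagen of fibroblasts, had 3564 and 5434 on NT3-/-Bax-/- GFPoff arrays, against 48.7 and 103 on Bax-/- GFPoff arrays. The GFPon levels given for single genes do not use the GFPoff arrays, but on GFPon arrays too fibroblast and matrix markers summed to more, 12189 and 10236 in NT3-/-Bax-/- mice, against 2289.6 and 2758 in Bax-/- mice. Glial and endothelial sums were lower there: glial markers summed to 5940.2 and 2916 on NT3-/-Bax-/- GFPon arrays, against 8599 and 11597 on Bax-/- GFPon arrays, and endothelial and mural markers to 643 and 365 on NT3-/-Bax-/- GFPon arrays, against 699 and 973 on Bax-/- GFPon arrays. Genes shared by sensory neurons summed to less too: 46251 and 56090 on NT3-/-Bax-/- GFPon arrays, against 71664 and 69394 on Bax-/- ones. On GFPoff arrays they summed to 49508 and 39868 in NT3-/-Bax-/- mice, against 70434 and 65951 in Bax-/- mice. The part of other cells and of the lower neuronal sums in the GFPon levels and in the 4348 calls was not tested.

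**Figure D5:**
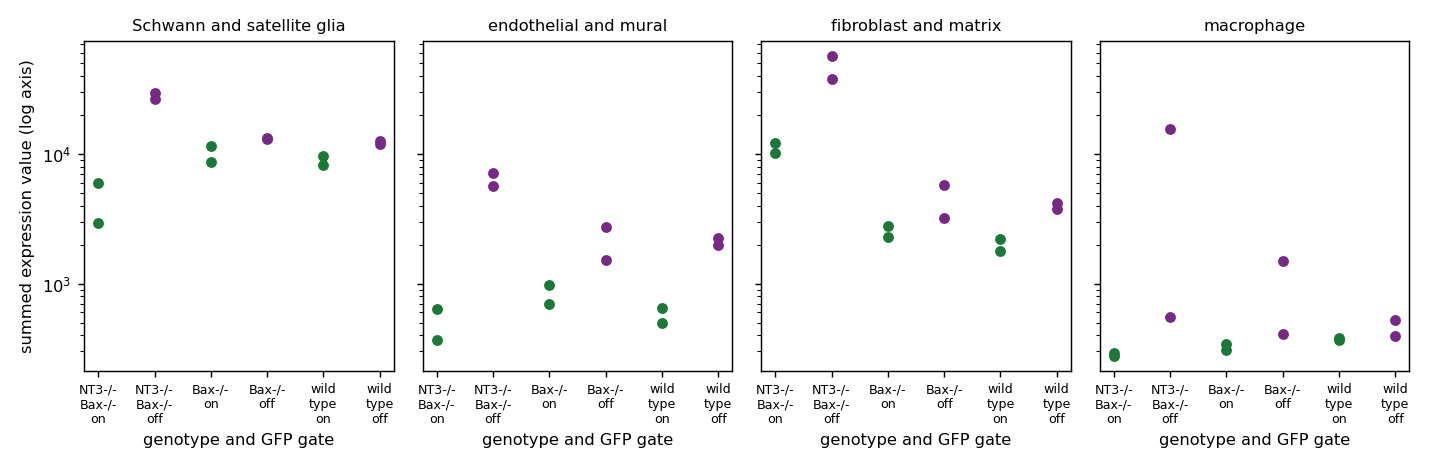
Summed expression value (log axis) of 4 marker lists on each array, for NT3-/-Bax-/-, Bax-/- and wild-type mice, with GFPon arrays (green) left of GFPoff arrays (purple) in each genotype. The NT3-/-Bax-/- GFPoff arrays lie above the Bax-/- GFPoff arrays for glial, endothelial and fibroblast markers, and for macrophage markers 1 of them lies above both.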

How the data were processed

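RNA of sorted cells was amplified by in vitro transcription and hybridized to Affymetrix Mouse Genome arrays. According to the methods, the authors read the array files in R 2.9 with affy and normalized them with RMA; which arrays were normalized jointly is not given in the sources used here. The deposited intensity values are linear, and their log2 was taken without a pseudocount. Of 45101 probe sets, 64 controls were left out. Probe sets naming 1 gene (34945) gave 18193 genes; those naming several (932) or none (9160) were tested but not named. Etv1, Bax and Ntf3 were not analysed here.

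One fit of 16 arrays (limma 3.58.1, R 4.3.3, 8 group means, no covariates), tested on simulated data, gave every contrast, with Benjamini-Hochberg adjustment over 45037 probe sets. Named genes are those the study names, the 15 largest rises and falls among calls with no overlap (the probe set with the largest change), up to 8 called members per list and direction (the brightest probe set), all cell type markers and the 10 largest changes each way in each difference of differences. The members and lists were chosen with earlier results of these data known. Mgam, Gpr50 and Creg2 were named after their values were seen. Alternatives changed the arrays fitted, the replicate block, variance trend, array weights, normalization, pseudocount and filters. Precision is limited by 2 arrays per group.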

Additional observations from a re-analysis of the deposited data

Results flagged for a closer look

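The GFPon minus GFPoff difference was itself different between NT3-/-Bax-/- and Bax-/- mice, by limma's test of the difference of differences at an adjusted p under 0.05, for 2039 probe sets with a higher and 2309 with a lower difference in NT3-/-Bax-/- mice. The 10 genes with the largest higher values, on the log2 scale, were Nell1 (7.93), St6gal2 (6.90), Lpar3 (6.50), Ldb2 (5.998), 9430021M05Rik (5.74), Shisa6 (5.45), Synpr (4.90), Sorl1 (4.86), Abi3bp (4.80) and Shisa9 (4.75). These values subtract the Bax-/- difference, so they use the Bax-/- arrays again. Nell1, Lpar3, Ldb2 and 9430021M05Rik were also among the largest falls in Bax-/- mice, and the shared arrays favour large values for them. Shisa6 and Shisa9, which encode proteins that bind AMPA receptors, were high on the GFPon arrays of NT3-/-Bax-/- mice: Shisa6 had 3847 and 4284 on NT3-/-Bax-/- GFPon arrays, against 302 and 291 on Bax-/- GFPon arrays, and Shisa9 had 1663 and 2057 on NT3-/-Bax-/- GFPon arrays, against 21.1 and 38.8 on Bax-/- GFPon arrays.

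The 10 genes with the largest lower values were Bmp5 (-7.26), Scara3 (-7.23), Lox (-7.12), Lyz1 (-6.81), Lmo2 (-6.51), Gm16551 (-6.02), Ecrg4 (-5.97), Col1a1 (-5.94), Col3a1 (-5.86) and Cldn1 (-5.80). Gm16551 was also among the largest rises in Bax-/- mice, so the shared arrays favour a large value for it. Col3a1, a collagen, had 2071 and 3831 on NT3-/-Bax-/- GFPoff arrays, where fibroblast markers summed to 38104 and 56608, against 16.4 and 40.5 on Bax-/- GFPoff arrays. Lyz1, a lysozyme gene, had 3241 and 122 on NT3-/-Bax-/- GFPoff arrays, where macrophage markers summed to 15506 and 550.4, against 44.2 and 158 on Bax-/- GFPoff arrays. Bmp5, a bone morphogenetic protein, differed on both sides of the sort, with 28.1 and 27.8 on NT3-/-Bax-/- GFPon arrays, against 422 and 287 on Bax-/- GFPon arrays, and with 181 and 497 on NT3-/-Bax-/- GFPoff arrays, against 20.5 and 29.1 on Bax-/- GFPoff arrays. The part of other cells in these values was not tested. The limma adjusted p of Lyz1, 0.025, became 0.068 without GFPon replicate 1 of Bax-/- mice, 0.10 without GFPoff replicate 1 of Bax-/- mice and 0.064 without GFPon replicate 1 of NT3-/-Bax-/- mice.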

How the results depend on the processing

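Between the Bax-/- populations only called genes were recomputed, and their arrays did not overlap. Leaving out an array could therefore not change the sign of these differences. No difference recomputed for a named gene changed its sign in any alternative run. The balance of calls did: for the difference of NT3-/-Bax-/- from Bax-/- mice, 2039 higher and 2309 lower became 2232 and 2117 with median centring, 2255 and 2217 with a pseudocount of 32, 1860 and 1640 over the brighter probe sets and 2002 and 1809 with a floor. Without GFPon replicate 2, potassium channels had 9 higher and 8 lower calls and transmitter release genes 7 and 6; without GFPoff replicate 1 these were 7 and 6, and 6 and 5. The median of apoptosis genes, -0.01, was 0.05 when all probe sets of a gene were averaged. Fitting only the arrays compared gave 1322 calls between the Bax-/- populations, 1265 of them among the 3522, and 1249 for the difference between NT3-/-Bax-/- and Bax-/- mice, against 4348; array weights gave 2365 there. The methods' t-test on the 4 Bax-/- arrays gave 999 probe sets at the study's thresholds, against 2890 by limma, and 0 after Benjamini-Hochberg adjustment. Leaving out 1 array gave 1863 to 3816 calls between the Bax-/- populations, 2806 to 3719 at the study's thresholds, 0 to 8 for the difference from wild type and 2622 to 5035 for the difference of NT3-/-Bax-/- from Bax-/- mice, the lowest without Bax-/- GFPoff replicate 1. A pseudocount of 32 gave 1 call for the difference from wild type, of Creg2. Averaging all probe sets of a gene gave medians of 2.47 for proprioceptor, -1.31 for nociceptor and -0.51 for fibroblast markers, against 3.43, -1.09 and -0.75. Of 219 called list genes, 111 stayed called without any single Bax-/- array and 101 lost the call when the Bax-/- arrays were fitted alone. Same-numbered arrays share only a number (correlations of their deviations 0.0077 to 0.283 over 4 genotypes). With the replicate number as a block there were 3550 calls between the Bax-/- populations, 2954 at the study's thresholds, 0 for the difference from wild type and 4449 for that of NT3-/-Bax-/- from Bax-/- mice, and 17 of the 219 list genes lost the call. Fits chosen after seeing the data, without the NT3-/-Bax-/- GFPoff arrays or without 1 GFPon array of mlcNT3 mice, which overexpress NT3 in muscle, gave 4113 and 3181 calls. Where leaving out an array leaves 1 in its group, that array is assumed to vary like the others.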
